A study of Saccharomyces cerevisiae with 16 samples.

Results

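The loss of Upf1 was examined in starved budding yeast (Saccharomyces cerevisiae) by setting 2 strand-specific total RNA libraries of upf1 cells against 2 of wild-type (WT) cells. These are 4 of the 16 libraries of the series, chosen by their labels, and the comparison takes in all 11997 features of the table other than spike-ins, out of 12089. The upf1 cells carried upf1Δ::kanMX4 (strain YAM202). The WT cells were strain YAM1, and both strains share MATa his3Δ1 leu2Δ0 met15Δ0 ura3Δ0. Mid-log cultures in CSM medium with glucose were moved for 16 min to medium that held glycerol and ethanol but no glucose. The WT cultures also received DMSO as a mock treatment, and the labels name no solvent for the mutant, so any effect of DMSO cannot be told apart from that of the deletion. Each genotype is 1 strain, the design text calls the 2 replicates of a condition biological, and the p-values measure the spread between such libraries. The same deletion in glucose, 2 upf1 and 2 WT libraries that share none with the starved comparison, serves to show where starvation differs.

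Upf1, an RNA helicase, is the core factor of nonsense-mediated decay (NMD), a cytoplasmic pathway in which a ribosome that stops at an early stop codon marks its mRNA for decapping and for digestion from the 5′ end. It acts with Upf2 (encoded by NMD2) and Upf3, and its usual substrates are mRNAs with upstream or shifted reading frames, unspliced mRNAs, pseudogene transcripts and many long noncoding RNAs (lncRNAs) that ribosomes engage. Decay by this route needs translation, and removal of glucose is known to lower translation initiation within minutes. In yeast the lncRNAs are named for how they were found: XUTs build up without the exonuclease Xrn1, SUTs are stable, CUTs are destroyed by the nuclear exosome, and NUTs appear when the terminator Nrd1 is depleted.

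All values are read densities, in reads per nucleotide of the feature, as the authors scaled them, so levels of different genes can be set side by side. Changes are on the log2(density + 0.00369) scale, upf1 minus WT, with a standard error (SE) and a Benjamini-Hochberg adjusted p from limma over the 11599 features that passed a filter on low values. "Rose" and "fell" are used where this adjusted p was under 0.05. From the value of 1 read in low genes, the starved libraries held an estimated 14983913 and 13950228 reads on open reading frames (ORFs) in upf1, against 14182871 and 12655181 in WT, with a median of 785 and 713 reads per ORF in upf1, against 691 and 592 in WT. RNA came from whole cultures, so fewer cells with a transcript and less of it per cell cannot be told apart.

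UPF1 (NAM7, YMR080C, chrXIII:426712-429627, minus strand, build R64), the deleted gene, had 0.00930 and 0.00935 reads per nucleotide in starved upf1 cells, against 0.335 and 0.323 in starved WT cells (-4.68 ± 0.10, SE, adjusted p = 2.1e-11, limma). The labels of all 4 libraries thus match the gene's level. ISF1 (YMR081C, chrXIII:430079-431095, minus strand), which lies directly upstream of UPF1 on the same strand and is linked to mitochondrial function, fell too, at 0.624 and 0.574 in upf1 and 1.32 and 1.16 in WT (-1.04 ± 0.22, SE, adjusted p = 0.0029, limma). Its paralogue MBR1 on another chromosome fell by a like amount (-1.10 ± 0.14), and the neighbours CTF18, SEC14 and ADH3 did not pass. Of the 7 a-specific genes 6 fell (3 without the first WT or the second upf1 library), and the receptor gene STE2 did not pass at 0.807 and 0.805 in upf1, against 0.785 and 0.768 in WT. The alpha-factor gene MF(ALPHA)1 had 0 and 0.0011 in upf1 and 0 and 0.00146 in WT, at the level of MATa cells, while SAG1, the alpha-agglutinin gene, rose, with values given among the mating genes.

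Among all features, 2213 rose (19.1%) and 1840 fell (15.9%) in starved upf1 cells, with a median change of 0.02. Both libraries of 1 genotype lay above both of the other for 8344 features (71.9%), so a lack of overlap by itself was common. The mix depended on the kind of transcript. Noncoding RNAs made up most of the risers: 1486 of 4788 lncRNAs rose and 57 fell, with a median of 0.39. Protein-coding genes made up most of the fallers: 598 of 5814 rose (10.3%) and 1730 fell (29.8%), with a median of -0.21. Their summed density was 3990 and 3912 in upf1, against 4606 and 4554 in WT.

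How many features counted as risen or fallen rested on the scaling between libraries. Scaling to the protein-coding genes raised the median of all features by 0.13 and gave 3502 risen and 2000 fallen features (1199 and 1887 protein-coding). Scaling to the small nucleolar RNAs (snoRNAs) lowered it by 0.39 and gave 869 and 3808 (132 and 3404 protein-coding). The ERCC spike-ins were already equal across libraries, so scaling to them could not change a count. The deposited scaling thus equals a scaling to the spike-ins. The second upf1 library stood apart in short structured RNAs: its median snoRNA density was 14.8, against 8.31 in the first upf1 library and at most 8.10 in WT. The U6 RNA snR6 likewise had 19.0 and 57.6 in upf1 and 8.76 and 13.9 in WT. Of 76 snoRNAs 31 rose, with a median change of 0.33. That median was 0.05 without the second upf1 library and 0.22 without the first WT library. Without the second WT or the first upf1 library it was 0.53 and 0.62. The factors of the snoRNA scaling were 0.988 and 1.39 in upf1, against 0.744 and 0.968 in WT. Values given relative to the snoRNAs thus rest in part on the second upf1 library, and snoRNA scaling without it was not tested. Over all features, 697 fell without the second upf1 library, 721 without the first WT library, 1184 without the second WT library and 1216 without the first upf1 library, while 1484 to 1684 rose.

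XUTs and SUTs were the lncRNAs most often raised. Of 1624 XUTs, 664 rose and 8 fell (median 0.61), and of 830 SUTs, 389 rose and 7 fell (median 0.54). Of 1432 NUTs 347 rose and 21 fell (median 0.30), and of 902 CUTs 86 rose and 21 fell (median 0.12). The XUTs summed to 50.7 and 49.2 reads per nucleotide in upf1, against 31.2 and 29.3 in WT. Summed SUT density was 39.0 and 38.7 in upf1, against 24.8 and 23.7 in WT. Both upf1 libraries thus lay above both WT libraries for XUTs and for SUTs. Summed NUT density overlapped, at 386 and 471 in upf1 and 359 and 401 in WT. Summed CUT density was lower in upf1, at 27.1 and 26.9, against 27.9 and 27.5 in WT. Among lncRNAs with a mean over all 16 libraries of at least 0.0369, 52.94% of 935 XUTs and 55.59% of 608 SUTs rose. The shares were 42.08% of 499 NUTs and 21.62% of 296 CUTs. That mean takes in the xrn1 and cycloheximide libraries, so a feature could pass through those. The median XUT density was 0.0888 and 0.0848 in starved xrn1, against 0.0101 and 0.00926 in starved WT. With snoRNA scaling the medians stayed above 0 for XUTs (0.27) and SUTs (0.17), stood at 0.03 for NUTs and turned to -0.18 for CUTs. Without the second upf1 library 450 XUTs, 287 SUTs, 207 NUTs and 51 CUTs rose, and without any 1 of the other libraries 51 to 63 CUTs did.

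**Figure D1:**
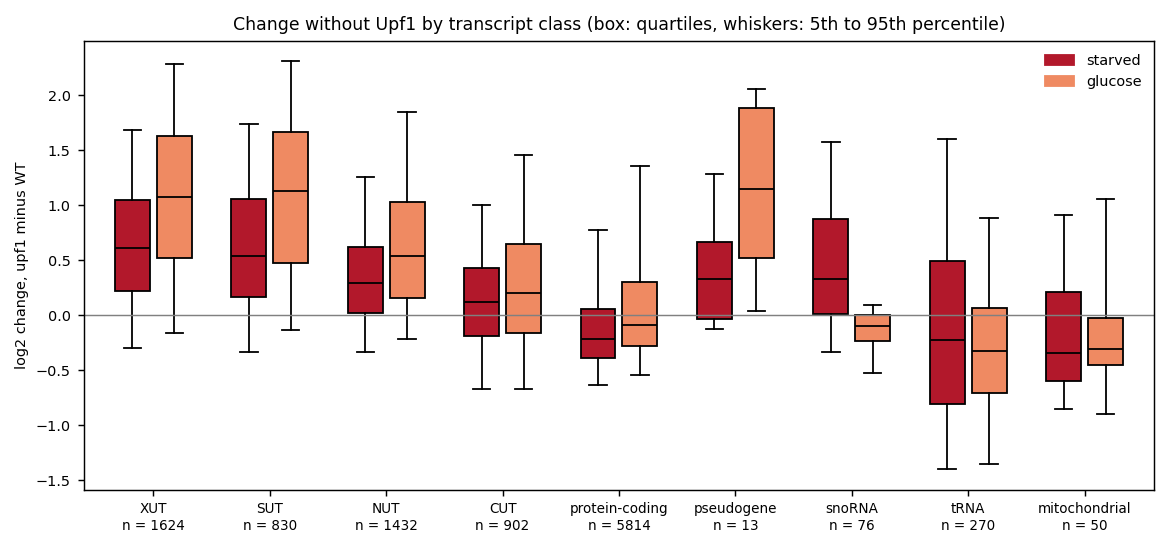
Log2 change (upf1 minus WT) of every tested feature by transcript class, in starvation and in glucose; boxes give the quartiles, the line the median and whiskers the 5th to 95th percentile. The medians of XUTs (0.61 starved, 1.08 glucose) and SUTs (0.54 and 1.13) lie above 0 and the protein-coding median lies below it (-0.21 and -0.08), while snoRNAs lie above 0 in starvation only, where 1 library stood apart.

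Single lncRNAs changed by more than the class medians. SUT406 had 0.121 and 0.112 reads per nucleotide in upf1, against 0.0172 and 0.0147 in WT (2.62 ± 0.13, SE, adjusted p = 2.9e-07, limma). SUT464 had 0.177 and 0.160 in upf1, against 0.0267 and 0.0186 in WT (2.72 ± 0.18). The 2 libraries of each genotype lay close together for both. XUT1361 changed the most of the named lncRNAs at 3.99 ± 0.65, but its upf1 libraries differed, with 0.289 and 0.0940, against 0.00870 and 0.00542 in WT. NUT0671 (2.66 ± 0.17), XUT1427 (2.71 ± 0.33) and XUT0987 (2.48 ± 0.18) also rose. ICR1, a regulatory lncRNA of the flocculin gene FLO11, had 0.275 and 0.264 in upf1, against 0.138 and 0.0999 in WT (1.17 ± 0.17), and FLO11 itself rose as well (1.47 ± 0.25).

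The few lncRNAs that fell did so by less and with less certainty. CUT289 had 0.0176 and 0.0261 in upf1, against 0.0540 and 0.0623 in WT (-1.29 ± 0.36, adjusted p = 0.015, limma). Without the first upf1 library (adjusted p = 0.094) or the second WT library (0.074) it no longer passed, and XUT1168, SUT605, XUT1781 and SUT797 each failed without at least 1 library. NUT1103 (-0.88 ± 0.12) kept a nearly fixed ratio to the mRNA of HXT5, a hexose transporter, over the 16 libraries, with an SD of the log2 ratio of 0.00457, and NUT0676 did so to ZPS1 (SD 0.0233). NUT0814 (-0.84 ± 0.17) moved with GDB1, the glycogen debranching enzyme, more loosely (SD 0.101), which is no tighter than a pair of unlinked genes such as FUR1 and RPS18B (SD 0.0491). The pairs NUT0672 with YOL163W (SD 0.0585) and NUT0951 with YEL073C (SD 0.0913) were alike in this. Whether any of these pairs share reads was not tested.

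The mRNAs that rose the most encode proteins of unrelated kinds. COS12 (YGL263W, chrVII:2790-3932, plus strand), for a membrane protein of endosomal sorting, had 0.110 and 0.125 in upf1, against 0.0140 and 0.00914 in WT (3.01 ± 0.17, SE, adjusted p = 6.2e-07, limma). DAL7 (YIR031C, chrIX:413015-414679, minus strand), a malate synthase of allantoin breakdown, had 0.446 and 0.403 in upf1, against 0.0805 and 0.0750 in WT (2.39 ± 0.14). For TCA17 (YEL048C, chrV:64709-65167, minus strand), a subunit of the TRAPPII vesicle-tethering complex, the values were 0.395 and 0.396 in upf1 and 0.0857 and 0.0927 in WT (2.10 ± 0.10, adjusted p = 2.9e-07). In each the genotypes were far apart beside the spread within a genotype. COS12 and the seripauperin gene PAU7 (2.30 ± 0.33) belong to families of near-identical copies, so how reads were split among copies is uncertain.

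Further strong risers were FLR1, a drug-proton antiporter, with 0.396 and 0.406 in upf1, against 0.0987 and 0.100 in WT (1.97 ± 0.11), and HTL1, a component of the RSC chromatin remodeller (1.87 ± 0.12). ISC10, a meiosis-specific inhibitor of the kinase Smk1, also rose (2.06 ± 0.13). Its log2 ratio to its neighbour SLO1 had an SD of 0.13 over the 16 libraries. The sporulation gene SPS4 had 0.0582 and 0.0493 in upf1, against 0.00818 and 0.00636 in WT (2.39 ± 0.21). YEL073C (1.99 ± 0.14), YOL162W (2.42 ± 0.19) and AAD4, a putative aryl-alcohol dehydrogenase gene (1.80 ± 0.12), rose too. For ZPS1, a gene induced by low zinc, the upf1 libraries lay far apart: it had 2.07 and 0.202 in upf1 and 0.0550 and 0.0484 in WT (3.56 ± 1.12, adjusted p = 0.028). Its change was 1.89 without the first upf1 library (adjusted p = 0.24), and it also failed without either WT library (0.094 and 0.097).

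**Figure D2:**
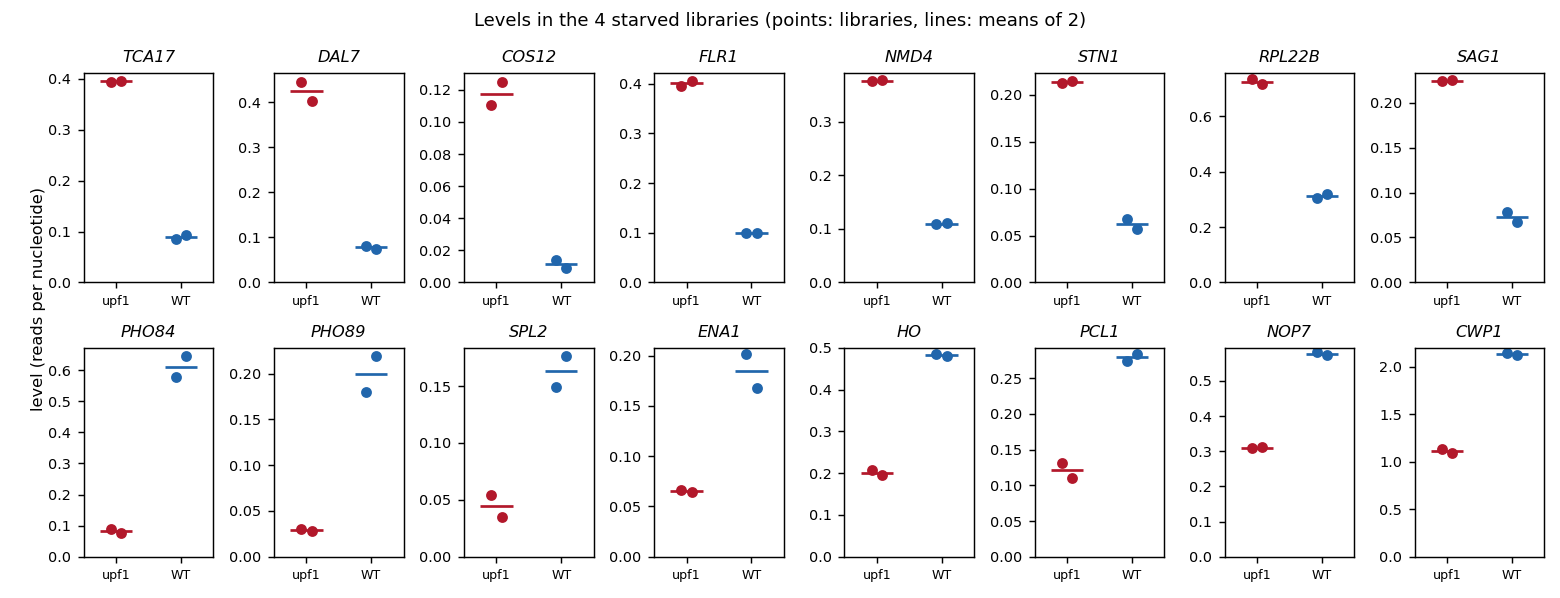
Read densities (reads per nucleotide, linear axes from 0) of 16 genes in the 2 starved upf1 libraries (red, left) and the 2 starved WT libraries (blue, right); points are libraries and lines are means of 2. The genotypes do not overlap in any panel, but most of these genes were named under a rule that asked for this. TCA17 sits at 0.395 and 0.396 in upf1, against 0.0857 and 0.0927 in WT, and PHO84 at 0.0879 and 0.0754 in upf1, against 0.578 and 0.644 in WT.

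The NMD factors themselves moved in both directions. NMD4, whose protein binds Upf1, had 0.376 and 0.377 in upf1, against 0.109 and 0.110 in WT (1.75 ± 0.10, adjusted p = 6.6e-07, limma). EBS1, which encodes another partner of Upf1, had 0.272 and 0.256 in upf1, against 0.168 and 0.163 in WT (0.66 ± 0.13). The release factor gene SUP35 fell, at 0.426 and 0.415 in upf1 and 0.623 and 0.601 in WT (-0.54 ± 0.11). HRR25, a casein kinase gene, also fell (-0.49 ± 0.14), though it failed without either WT library or the second upf1 library (adjusted p = 0.053 to 0.12). NMD2 (0.15 ± 0.12), UPF3 (-0.32 ± 0.22) and the release factor gene SUP45 (-0.13 ± 0.08) did not pass. Of the decapping genes 9 of 20 fell and 0 rose, of the deadenylation genes 7 of 12 fell and 0 rose, and of the exosome and nuclear decay genes 14 of 27 fell and 0 rose. Among all protein-coding genes 29.8% fell and 10.3% rose. At an unadjusted p under 0.05 in limma 10, 9 and 16 fell and 0 rose in these 3 lists. Without any 1 library 3 to 6 decapping, 3 to 6 deadenylation and 4 to 8 exosome genes fell.

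Of 20 genes listed as known NMD substrates from textbook examples, 12 rose and 1 fell, with a median of 0.40, against -0.21 for all protein-coding genes. In this group STN1, a telomere capping protein, had 0.213 and 0.215 in upf1, against 0.0674 and 0.0574 in WT (1.72 ± 0.12). CPA1, the arginine-repressed carbamoyl phosphate synthase subunit whose leader encodes an attenuator peptide, had 0.863 and 0.851 in upf1, against 0.584 and 0.531 in WT (0.62 ± 0.10), and its leader ORF YOR302W kept a constant ratio to it. PGA1, of glycolipid anchor synthesis, rose by 0.94 ± 0.11. CTF13 (0.42 ± 0.14), SPT10 (0.38 ± 0.14) and the magnesium transporter gene ALR1 (0.37 ± 0.11) passed narrowly, and each lost its call without 3 or more of the 4 libraries. The other 7 of the 20 did not pass: PPR1 (0.37 ± 0.17), SUS1 (0.35 ± 0.14), FZF1 (0.31 ± 0.14), CTR2 (0.15 ± 0.10), GCR1 (0.13 ± 0.13), COX23 (-0.28 ± 0.13) and SSY5 (-0.39 ± 0.14). YRA1, an mRNA export factor gene that limits its own unspliced transcript, fell at 0.658 and 0.618 in upf1 and 0.916 and 0.873 in WT (-0.49 ± 0.13), but not without the second upf1 library (adjusted p = 0.075) or the first WT library (0.071). Relative to the snoRNAs 4 of the 20 rose and 3 fell, with a median of -0.05.

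Telomere genes moved in both directions. The catalytic subunit EST2 had 0.0823 and 0.0780 in upf1, against 0.0259 and 0.0244 in WT (1.54 ± 0.16, adjusted p = 2.2e-05, limma). The other telomerase and capping genes TEN1 (1.34 ± 0.16), EST3 (1.03 ± 0.12) and EST1 (0.65 ± 0.15) rose with STN1, as did RIF2 (0.75 ± 0.18), a negative regulator of telomere length, and the kinase gene TEL1 (0.38 ± 0.13). RAP1, the telomere and promoter binding protein, had 0.107 and 0.108 in upf1, against 0.183 and 0.193 in WT (-0.79 ± 0.13), and its partner RIF1 (-0.72 ± 0.16) and CST6 (-0.70 ± 0.14) fell as well. In all, 7 of 15 telomere genes rose and 3 fell, whereas 10.3% of all protein-coding genes rose and 29.8% fell. The share that fell was thus below that of all. The risers EST1, EST2, EST3, STN1 and TEN1 are also among the genes listed as NMD substrates, so they are counted in both lists. The telomerase RNA TLC1 did not pass (-0.23 ± 0.12). The median of the telomere list, 0.02, was -0.42 relative to the snoRNAs.

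Unspliced mRNA is a known source of early stop codons, and the ORF densities here count intron reads: 92.9% of 126 low values of intron genes came out as whole reads (within 0.03) when the length included the intron, against 1.44% of 139 when it did not. Reading on from the start codon into the intron, an in-frame stop lay within the intron in 246 of 259 genes with 1 intron (94.98%). That held for 24 of the 27 that rose and for 97 of the 97 that fell, so the stop alone does not separate them. The reading frames of 6 risers are shown because each meets an early stop in its intron, as R64 sequence from the start codon to that stop, which is in capitals.
RPL22B, chrVI:64912-64932, minus strand, 12 exon bases: atggctccaaacgtacgtTAA
RPL28, chrVII:310967-311023, plus strand, 49 exon bases: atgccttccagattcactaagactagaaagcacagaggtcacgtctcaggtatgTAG
NBL1, chrVIII:498731-498859, minus strand, 73 exon bases: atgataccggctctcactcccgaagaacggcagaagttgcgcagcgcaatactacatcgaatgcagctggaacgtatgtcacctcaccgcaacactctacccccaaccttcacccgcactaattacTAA
MAY24, chrXVI:833689-833760, plus strand, 5 exon bases: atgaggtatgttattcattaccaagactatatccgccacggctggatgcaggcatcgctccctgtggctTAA
HFM1, chrVII:31562-31636, minus strand, 58 exon bases: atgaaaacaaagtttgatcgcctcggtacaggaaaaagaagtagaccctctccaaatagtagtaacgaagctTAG
MEI4, chrV:239661-239774, minus strand, 63 exon bases: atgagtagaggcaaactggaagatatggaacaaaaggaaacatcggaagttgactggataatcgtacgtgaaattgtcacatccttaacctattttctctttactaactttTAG

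RPL22B, a ribosomal protein gene whose protein blocks its own splicing, had 0.734 and 0.717 in upf1, against 0.304 and 0.321 in WT (1.21 ± 0.11, SE, adjusted p = 1.2e-05, limma). RPL28 had 11.3 and 12.3 in upf1, against 8.26 and 8.68 in WT (0.47 ± 0.07). Both stood out from the ribosomal protein genes, most of which fell. NBL1, the borealin subunit of the chromosomal passenger complex, had 0.298 and 0.305 in upf1, against 0.119 and 0.0981 in WT (1.45 ± 0.15). The rises of MAY24 (0.92 ± 0.15), the meiotic helicase gene HFM1 (0.81 ± 0.17), the meiotic break formation gene MEI4 (0.70 ± 0.16), the synapsis gene SPO22 (0.73 ± 0.21), IWR1 (0.74 ± 0.16), an import factor of RNA polymerase II, and the splicing factor gene YSF3 (0.68 ± 0.12) were of like size. Total density does not say how much of each mRNA was unspliced. RPS22B also passed (0.48 ± 0.17, with 4.53 and 6.86 in upf1 and 3.50 and 4.54 in WT), but its intron encodes a snoRNA and it did not pass without the second upf1 library (0.18, adjusted p = 0.41) or the first WT library (0.30, adjusted p = 0.30).

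Some pseudogenes carry an early stop codon in an old reading frame. Of 13 tested, 7 had their first in-frame stop before the annotated end and 4 of these rose. Over the whole class, 5 rose (38.46%) and 0 fell, against 19.1% and 15.9% of all features. The median was 0.33 (-0.08 relative to the snoRNAs). How reads were split between a pseudogene and similar intact genes was not tested. SDL1, from a serine dehydratase gene, had 0.0719 and 0.0618 in upf1, against 0.0234 and 0.0228 in WT (1.40 ± 0.20, adjusted p = 0.00024, limma). AAD6 had 0.409 and 0.420 in upf1, against 0.216 and 0.169 in WT (1.10 ± 0.14), and YIR043C rose by 1.28 ± 0.28. CCW22, from a cell wall protein gene, had 14.8 and 14.1 in upf1, against 9.53 and 8.73 in WT (0.67 ± 0.11). FLO8, a flocculation activator inactive in the reference strain through an early stop, did not pass (0.33 ± 0.15, adjusted p = 0.11). The others with an early stop, YOL153C (0.21 ± 0.18, stop at base 391 of 1746) and CRS5 (-0.12 ± 0.18, stop at base 25 of 210), did not pass either, and SDC25 rose (0.62 ± 0.16) with its first in-frame stop at the end of the annotated gene. The 30 bases up to the first in-frame stop (R64) show how early it comes, and capitals mark the stop.
SDL1, chrIX:29386-29415, plus strand, stop at base 382 of 1017: gaagcagatgaatacttgaggcacgaaTGA
AAD6, chrVI:14793-14822, minus strand, stop at base 637 of 1127: gcatctatcaaggtaaatggaacctgtTGA
YIR043C, chrIX:437994-438023, minus strand, stop at base 184 of 1137: atgctattatggctaccacttagcatcTGA
CCW22, chrIV:721281-721310, minus strand, stop at base 199 of 411: accgtcaccgtaaatgacgttatcactTAA
FLO8, chrV:377189-377218, minus strand, stop at base 424 of 2400: acacctcaaggctttttgtatgaatggTAG

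Some features of mRNAs went with the direction of change, described here without a test because genes are not replicates. An ATG within the 60 bases before the start codon was present in 1472 mRNAs, of which 18.14% rose and 15.96% fell, against 7.63% and 34.42% of the 4341 without one. Whether those bases are transcribed was not looked at. More of the mRNAs with such an ATG rose in each of 5 equal groups by level, with 21.33% against 12.96% in the lowest and 7.14% against 3.03% in the highest. Of the 195 genes within 20 kb of a chromosome end 38.46% rose and 7.69% fell (median 0.40), against 9.31% and 30.51% of the 5618 farther in. Short mRNAs rose more often than long ones: of 5 equal groups by coding length 15.33% of the shortest rose and 19.08% fell, against 4.84% and 44.04% of the longest. Level went the same way, with 48.5% of the most abundant of 5 groups and 13.33% of the least abundant falling.

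**Figure D3:**
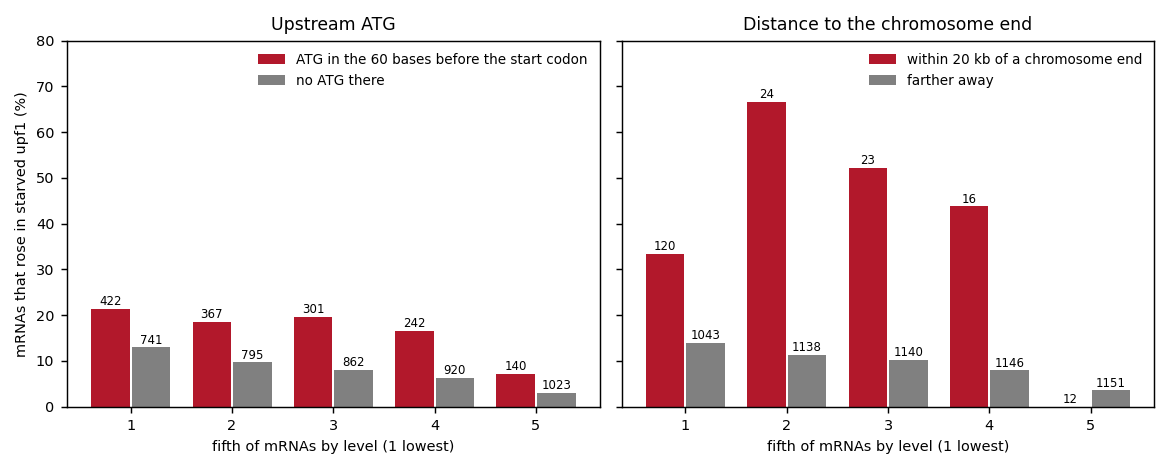
Percent of protein-coding genes that rose in starved upf1 cells, in 5 equal groups by mean level over 16 libraries (1 lowest); red bars are genes with an ATG in the 60 bases before the start codon (left panel) or within 20 kb of a chromosome end (right panel), grey bars the rest, and the number over a bar is its count of genes. Red bars are higher than grey in every group except the highest of the right panel, where 0 of 12 genes near an end rose.

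Apart from the deleted UPF1, the phosphate regulon held the largest falls among mRNAs with a higher group mean of at least 0.05. The high-affinity phosphate transporter PHO84 (YML123C, chrXIII:24037-25800, minus strand) had 0.0879 and 0.0754 in upf1, against 0.578 and 0.644 in WT (-2.85 ± 0.15, adjusted p = 2.9e-07, limma). The sodium-phosphate transporter PHO89 (YBR296C, chrII:796798-798522, minus strand) had 0.0298 and 0.0283 in upf1, against 0.180 and 0.219 in WT (-2.63 ± 0.15). SPL2, which lowers the low-affinity transporter Pho87, had 0.0544 and 0.0347 in upf1, against 0.149 and 0.177 in WT (-1.82 ± 0.18). The polyphosphate polymerase genes VTC1 (-0.88 ± 0.08), VTC4 (-0.82 ± 0.10), VTC3 (-0.81 ± 0.12) and VTC2 (-0.50 ± 0.11) fell with them, as did PHM6 (-1.47 ± 0.25) and the phosphatase genes PHO12 (-0.83 ± 0.16), PHO5 (-0.72 ± 0.15) and PHO8 (-0.56 ± 0.09). PHO11, a near-identical copy of PHO12, did not pass (0.40 ± 0.22), and how reads were split between the pair is uncertain. In all 16 of 21 phosphate genes fell and 1 rose, whereas 29.8% of all protein-coding genes fell and 10.3% rose. The phosphate genes had a median of -0.54, and their summed density was 4.58 and 4.53 in upf1, against 7.17 and 7.44 in WT. The regulators moved less: the inhibitor PHO81 (-0.48 ± 0.14) and the kinase gene PHO85 (-0.27 ± 0.09) fell, and the activator gene PHO4 (-0.44 ± 0.20) and the cyclin gene PHO80 (0.04 ± 0.12) did not pass. GIT1, a glycerophosphoinositol permease gene, was the riser, at 0.0429 and 0.0552 in upf1 and 0.0163 and 0.0165 in WT (1.38 ± 0.17). Without 1 library, 11 to 14 of the 21 fell.

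The activator Pho4 is known to bind CACGTG, and less tightly CACGTT. Both strands of the 500 bases that end 100 bases before the start codon were searched. The motif CACGTG was present for 16 of the 21 phosphate genes, against 6.77% of 5893 such windows. CACGTT or its complement was present for 12 of 21, against 16.3%. The list was drawn up as genes of the phosphate regulon, so these shares reflect that choice. PHO11, which did not pass, holds CACGTG as well, and whether the motif had a part in the falls was not tested. Windows of 60 bases are printed for the 3 phosphate genes with the largest falls and for GIT1, which rose, because all 4 hold the motif (R64, on the strand of the gene, with 1 CACGTG in capitals). In PHO84 a second copy follows in lower case.
PHO84, chrXIII:26204-26263, 436 bases before the start codon: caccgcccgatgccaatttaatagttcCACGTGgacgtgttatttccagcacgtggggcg
PHO89, chrII:798813-798872, 323 bases before: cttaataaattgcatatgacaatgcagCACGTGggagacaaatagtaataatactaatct
SPL2, chrVIII:375429-375488, 361 bases before: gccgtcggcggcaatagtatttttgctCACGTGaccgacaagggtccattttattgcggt
GIT1, chrIII:299091-299150, 518 bases before: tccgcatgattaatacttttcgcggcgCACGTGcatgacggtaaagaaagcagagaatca

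Other named fallers belong to the cell cycle, ion transport and mating. ENA1, the sodium pump, had 0.0668 and 0.0641 in upf1, against 0.201 and 0.168 in WT (-1.44 ± 0.15, adjusted p = 3.1e-05, limma), and it is 1 of several near-identical ENA copies. HO, the mating-type endonuclease gene, had 0.208 and 0.195 in upf1, against 0.486 and 0.480 in WT (-1.25 ± 0.13). The G1 cyclin gene PCL1 (-1.19 ± 0.15), the cohesin gene MCD1 (-1.09 ± 0.14) and the septin kinase gene GIN4 (-1.09 ± 0.14) fell. Of the cell cycle list 14 of 30 fell (46.7%) and 0 rose, against 29.8% and 10.3% of all protein-coding genes. Without the second upf1 library 8 of the list fell, and without the first WT library 9. Among a-specific genes the pheromone gene MFA1 had 0.670 and 0.664 in upf1, against 1.39 and 1.10 in WT (-0.89 ± 0.11), and the pheromone exporter gene STE6 (-0.69 ± 0.13) and BAR1, the protease that degrades alpha-factor (-0.42 ± 0.08), fell too. SAG1, the agglutinin of alpha cells, had 0.224 and 0.225 in upf1, against 0.0789 and 0.0673 in WT (1.57 ± 0.16), and AGA1, which anchors the a-cell agglutinin, fell (-1.14 ± 0.15). Both mating lists are otherwise as in MATa cells, and STE3, the receptor of alpha cells, did not pass (0.21 ± 0.20).

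Genes for making ribosomes fell together. Of 95 ribosome assembly genes 75 fell and 2 rose, with a median of -0.55. For all protein-coding genes 29.8% fell and 10.3% rose, with a median of -0.21. The summed density of the assembly genes was 15.7 and 15.9 in upf1, against 22.5 and 23.0 in WT. NOP7, of the large subunit, had 0.309 and 0.312 in upf1, against 0.582 and 0.574 in WT (-0.89 ± 0.11, adjusted p = 8.3e-05, limma). RRB1, a chaperone of a ribosomal protein, had 0.331 and 0.341 in upf1, against 0.576 and 0.563 in WT (-0.76 ± 0.08). NOP4 fell by a like amount (-0.93 ± 0.12). The 2 risers were NOP19 (0.51 ± 0.12) and IMP3 (0.41 ± 0.13), but IMP3 did not pass without any 1 of the 4 libraries, and NOP19 did not pass without the second upf1 library (adjusted p = 0.062) or the second WT library (0.051). Cytosolic ribosomal proteins had 103 of 137 genes that fell and 3 that rose (RPL22B, RPL28 and RPS22B), with a median of -0.32. Scaled to protein-coding genes 62 of them fell and 6 rose. Translation factor genes fell in 36 of 46 cases with 0 rising, and without any 1 library 16 to 23 fell. Histone genes fell in 8 of 11 cases with 0 rising, against 2 without the second upf1 or the first WT library, 3 without the second WT library and 5 with scaling to protein-coding genes. In both lists 0 members rose at an unadjusted p under 0.05.

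Genes for storage carbohydrates and respiration, which are made when glucose runs out, fell in part in starved upf1 cells. Of 21 trehalose and glycogen genes 13 fell and 0 rose, with a median of -0.54. Among all protein-coding genes 29.8% fell and 10.3% rose. GLC3, the glycogen branching enzyme, had 1.76 and 1.72 in upf1, against 3.08 and 2.64 in WT (-0.71 ± 0.13, adjusted p = 0.0015, limma). Values for GDB1 were 0.316 and 0.298 in upf1, against 0.582 and 0.488 in WT (-0.79 ± 0.16). GAC1, a regulatory subunit of the phosphatase that activates glycogen synthase, fell by 0.88 ± 0.21, and TPS2 (-0.59 ± 0.14) and TSL1 (-0.60 ± 0.15) of trehalose synthesis fell, while TPS1 (-0.32 ± 0.14) did not pass. The first WT library was higher than the second for these genes: the list summed to 28.1 and 25.9 in upf1, against 42.0 and 36.1 in WT, and without the first WT library 4 of the 21 fell, or 5 without the second upf1 library. Of 55 respiratory chain and TCA cycle genes 34 fell and 0 rose, with 13 left without the second upf1 library and 13 without the first WT library. Cytochrome oxidase gene COX4 had 0.692 and 0.633 in upf1, against 0.988 and 0.850 in WT (-0.47 ± 0.10), and CYB2, lactate dehydrogenase, had 0.378 and 0.290 in upf1, against 0.716 and 0.610 in WT (-0.99 ± 0.20). Mitochondrial ribosomal protein genes fell in 24 of 54 cases with 0 rising, against 2 without the second upf1 library, 4 without the first WT library and 13 without the second WT library. In these 3 lists 0 members rose at an unadjusted p under 0.05 (limma).

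In the meiosis and thiamine lists more members rose than fell, whereas 10.3% of all protein-coding genes rose and 29.8% fell. Of 48 meiosis and sporulation genes 15 rose and 4 fell (median 0.26; relative to the snoRNAs 3 rose, 5 fell and the median was 0.00). The fallers numbered 1 without the first WT or the second upf1 library. REC107, of meiotic break formation, had 0.310 and 0.272 in upf1, against 0.151 and 0.146 in WT (0.95 ± 0.15, adjusted p = 0.00058, limma), and the meiotic kinase gene IME2 rose by 1.06 ± 0.16. IME1, the inducer of meiosis, fell at low level (-0.64 ± 0.22), and NDT80 (0.09 ± 0.17) and SPO11 (0.56 ± 0.29) did not pass. Of 28 thiamine and vitamin genes 11 rose and 1 fell (median 0.33; relative to the snoRNAs 4, 4 and -0.10). THI22 had 0.256 and 0.248 in upf1, against 0.0811 and 0.0681 in WT (1.71 ± 0.14), and its near copy THI21 (1.71 ± 0.12), the thiamine-regulated gene PET18 (1.40 ± 0.11) and the biotin synthesis gene BIO3 (1.38 ± 0.15) rose. THI4, which makes the thiazole of thiamine, fell (-0.40 ± 0.11), but not without the second upf1 library (-0.33, adjusted p = 0.15) or the first WT library (-0.31, 0.14). Of these 7 rose without the second WT library, and of the meiosis genes 8 rose without the second upf1 library.

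Nutrient transporters and cell wall genes were mixed. In the nitrogen list 5 of 29 rose (17.2%) and 8 fell (27.6%), against 10.3% and 29.8% of all protein-coding genes, so the share that fell was near that of all. DAL5, the allantoate permease, had 0.220 and 0.200 in upf1, against 0.0603 and 0.0574 in WT (1.77 ± 0.14, adjusted p = 3.4e-06, limma), and DAL2 (1.46 ± 0.14) and the ammonium permease gene MEP2 (0.99 ± 0.14) rose, whereas the proline permease gene PUT4 fell (-1.12 ± 0.20). The iron and copper list held 9 risers and 5 fallers among 34 genes. The siderophore-binding wall protein FIT3 had 0.321 and 0.318 in upf1, against 0.115 and 0.132 in WT (1.34 ± 0.14), and the reductase genes FRE2 (1.24 ± 0.15) and FRE3 (1.20 ± 0.15) rose, whereas the regulator AFT1 (-0.71 ± 0.11) and the iron permease FTR1 (-0.68 ± 0.16) fell. Of the nitrogen fallers 3 were left without any 1 of 3 libraries (either upf1 or the first WT), and of the iron and copper fallers 3 without the first WT and 2 without the second upf1 library. Of 47 cell wall genes 9 rose and 20 fell (9 without the first WT or the second upf1 library). Risers were the anaerobic mannoprotein genes TIR4 (1.73 ± 0.19) and TIR2 (1.57 ± 0.21) and the flocculins FLO9 (1.29 ± 0.21) and FLO5 (1.00 ± 0.15), which share repeats. CWP1, a major wall mannoprotein, had 1.13 and 1.10 in upf1, against 2.15 and 2.13 in WT (-0.94 ± 0.11).

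Lists tied to carbon, stress and amino acids also held members that moved both ways. For comparison, 10.3% of all protein-coding genes rose and 29.8% fell. Of 55 stress and chaperone genes 23 fell and 2 rose. HSP12, a membrane stress protein, had 5.90 and 4.80 in upf1, against 8.78 and 7.84 in WT (-0.64 ± 0.16, adjusted p = 0.0077, limma), USV1, a putative transcription factor gene, fell by 0.97 ± 0.17, and the chaperone gene SSA3 (0.88 ± 0.15) and the peroxidase gene GPX1 (0.73 ± 0.13) rose. Without the first WT library 7 of these stress genes fell, and without the second upf1 library 8. Of 33 gluconeogenesis and alternative carbon genes 12 fell (7 without the first WT or the second upf1 library) and 3 rose, among them PCK1, which starts gluconeogenesis (0.76 ± 0.16). Of 26 other sugar genes 6 fell (23.1%) and 2 rose (7.69%), shares at or below those of all protein-coding genes. In this list the isomaltase gene IMA1, with near copies, had 0.161 and 0.165 in upf1, against 0.0678 and 0.0673 in WT (1.23 ± 0.16), and the maltose activator gene MAL33 fell (-0.67 ± 0.16). The fallers of this list numbered 0 without the first WT library and 1 without the second upf1 library. Of 64 amino acid genes 18 fell (28.1%) and 4 rose (6.25%), again near or below the shares of all protein-coding genes, with 6 to 9 fallers without 1 library. The aromatic aminotransferase gene ARO9 had 0.798 and 0.821 in upf1, against 1.41 and 1.17 in WT (-0.66 ± 0.12). Of 23 autophagy genes 6 rose and 6 fell: ATG16 (1.12 ± 0.19), of the conjugation machinery, rose, and the receptor gene ATG39 (-0.55 ± 0.18) fell, while 0 to 2 fallers were left without 1 library. Of 11 pyrimidine genes 4 rose and 3 fell, with URA10 (0.85 ± 0.12), which kept a nearly fixed ratio to NUT1325 (SD of the log2 ratio 0.00152), among the risers.

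**Figure D4:**
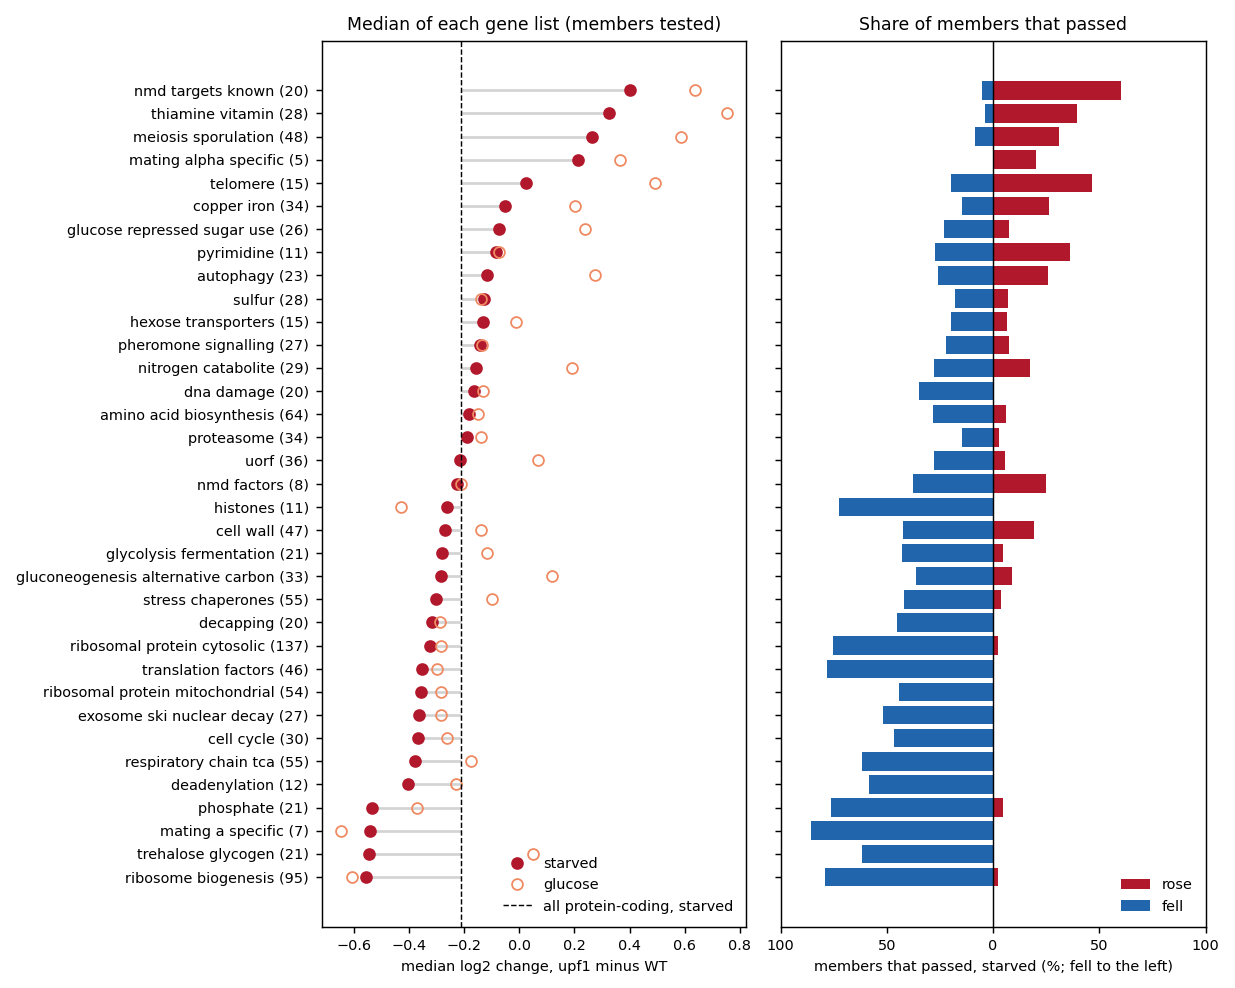
Left, median log2 change (upf1 minus WT) of the tested members of 35 gene lists, with the number of members in brackets, in starvation (filled) and in glucose (open); the dashed line is the median of all protein-coding genes in starvation, -0.21. Right, percent of members that rose (red, to the right) and fell (blue, to the left) in starvation. The genes listed as NMD substrates have the highest starved median (0.40) and ribosome assembly genes the lowest (-0.55).

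Set beside the same deletion in glucose, most starved risers were shared. With glucose present 3717 features rose (32.0%) and 1156 fell (9.97%). The fallers numbered 2797 with scaling to protein-coding genes, 115 with scaling to snoRNAs and 545 in a fit of the compared groups alone, so the shares of fallers below hold for the deposited scaling. Of the 2213 that rose in starvation 2037 also rose in glucose, which is 92.05% of the starved list and 54.8% of the glucose list. Of the fallers, leaving out UPF1, 888 were shared, 48.29% of the starved list and 76.88% of the glucose list. Features that rose in glucose had a median of 0.63 in starvation and 1.22 in glucose, and features that rose in starvation had 0.97 in starvation and 1.45 in glucose. For the falls it was not so with the deposited scaling. Features that fell in glucose had a median of -0.45 in starvation and -0.43 in glucose. Those that fell in starvation had -0.47 in starvation and -0.31 in glucose. Scaling to protein-coding genes moved the median of all features by 0.13 in starvation and by -0.06 in glucose, so this contrast rests on the scaling. Each list, of risers or fallers, was picked by the change in 1 condition, which favours a larger change there. Among XUTs 619 rose in both, 93.22% of the starved and 61.23% of the glucose list. Over the 11598 features the 2 sets of changes had a Pearson correlation of 0.77, as a description across features of 1 strain pair.

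A test of the difference between both effects (starved minus glucose, limma interaction) found 11 features with a more positive (0.0948%) and 558 with a more negative change in starvation (4.81%). The balance rested on the scaling and the fit: scaling to protein-coding genes gave 296 and 690 and moved the median difference over all features from -0.20 to 0.01, scaling to snoRNAs gave 17 and 1800, and the compared groups alone gave 1 and 123. With the deposited scaling, the 558 held 239 protein-coding genes (4.11% of those tested), 133 XUTs (8.19%) and 106 SUTs (12.77%), against 4.81% of all features. The largest difference among named genes was at MAL11, a maltose and alpha-glucoside transporter gene: starved cells had 0.243 and 0.226 in upf1, against 0.260 and 0.206 in WT, while glucose cells had 0.260 and 0.200 in upf1, against 0.0278 and 0.0232 in WT (interaction -2.97, adjusted p = 6.9e-05). In MAL11 and in MAL31 (-2.85), the WT libraries in starvation overlap both upf1 groups and only the WT libraries in glucose are low. XUT1664 (-2.49), SUT421 (-2.08) and the aspartyl protease gene YPS5 (-2.19) were likewise lowest in glucose WT cells. GLG1, a glycogenin gene, turned direction, with 0.232 and 0.205 in starved upf1, against 0.318 and 0.289 in starved WT, and 0.202 and 0.1503 in glucose upf1, against 0.0544 and 0.0749 in glucose WT (-1.86, adjusted p = 0.00084). In glucose, 4 members of the 21-gene glycogen and trehalose list were raised and 1 was lowered. With glucose present 20.74% of all protein-coding genes rose and 18.46% fell, so the list's share of risers was near that of all. A more negative change in starvation was found for 5 of the 21, against 4.11% of protein-coding genes.

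ENA1 and CYB2 differed another way. ENA1 had 0.0530 and 0.0451 in glucose upf1, against 0.0427 and 0.0455 in glucose WT, so the genotypes lay close together in glucose (interaction -1.58, adjusted p = 0.002, limma). CYB2 was at 0.122 and 0.101 in glucose upf1, against 0.0698 and 0.0939 in glucose WT (-1.43). Both are low in glucose in either genotype. PHO84 was among the 11 with the opposite sign: its fall was larger in glucose, with 0.128 and 0.0961 in upf1, against 1.35 and 1.74 in WT (0.89, adjusted p = 0.027). Without the first WT library 3 positive and 181 negative differences passed, without the second upf1 library 4 and 192, and without the first upf1 library 59 and 314.

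**Figure D5:**
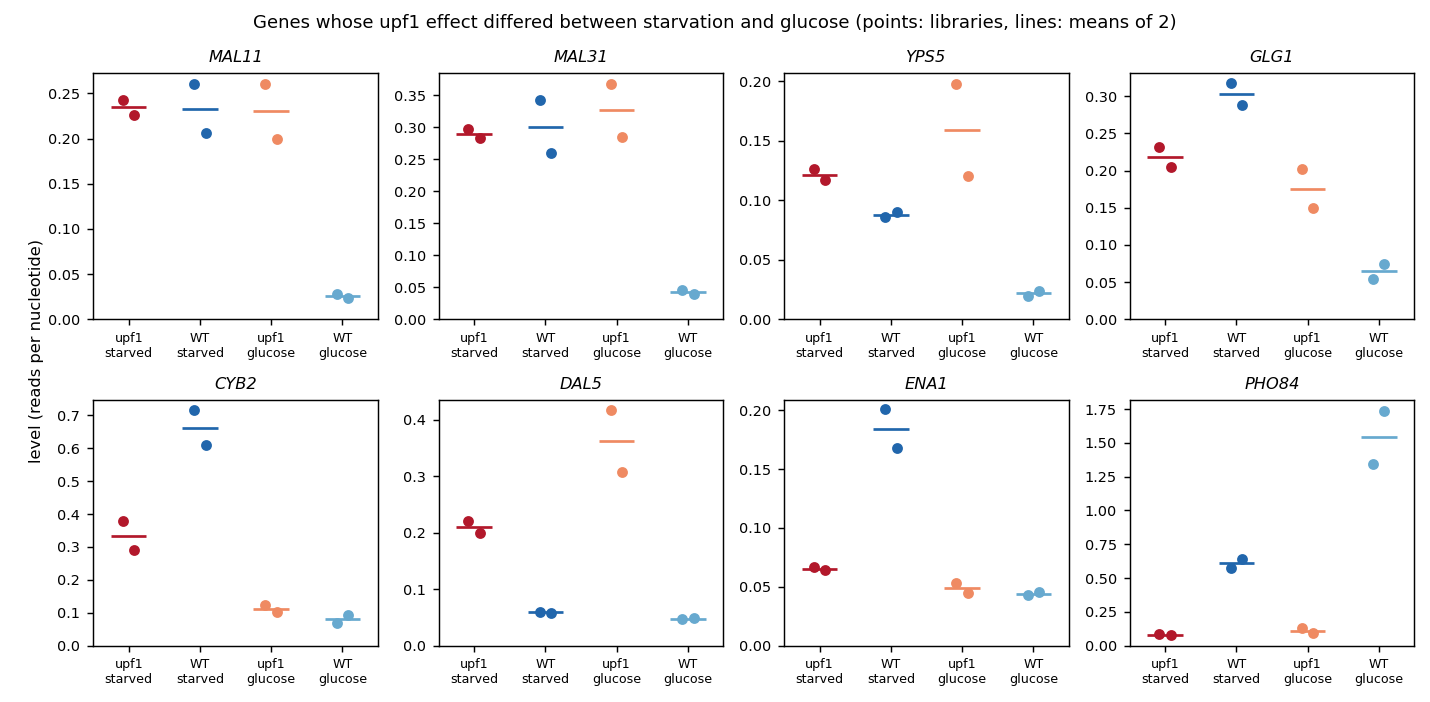
Read densities (reads per nucleotide, linear axes from 0) of 8 genes in starved upf1, starved WT, glucose upf1 and glucose WT cells, left to right; points are libraries and lines are means of 2. MAL11 and MAL31 are low only in glucose WT (0.0278 and 0.0232 for MAL11), ENA1 is high only in starved WT (0.201 and 0.168), and PHO84 is low in both upf1 groups.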

How the data were processed

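Strand-specific total RNA libraries were made from 1 µg of RNA with ERCC spike-ins and rRNA depletion, per the labels' protocols. The authors deposited 1 table of signal values, reads per nucleotide of each feature. How the scaling factor was obtained is not stated. The ERCC factor computed here was 1.0047 in every library, so the deposited values were already level on the spike-ins. Trim Galore, HISAT2 2.2.0, featureCounts 2.0.0, DESeq2 and build R64 are named in the submitters' processing notes, with no roles. The 8 columns of authors' means were not used. Values were tested as log2(value + 0.00369) with limma 3.58.1 (R 4.3.3), with 1 mean per group over 16 libraries and 8 residual degrees of freedom; 11599 of 11997 features had a mean of at least the pseudocount. Whole reads could not be recovered closely enough (81.0 to 86.2% of low values) for a count test. In data simulated for the starved comparison over 11599 features, 67, 67 and 66 features were changed by 0.6, 1 and 2 (log2). Of these 31.3%, 71.6% and 95.5% were recovered, and 12 of all 144 calls were false. Far more features passed in the data (2213 rose and 1840 fell), so these shares do not measure the power of the real test. Gene names, ORF models and sequences came from RefSeq R64. Named genes were the largest passing changes, the smallest adjusted p, all NMD factors and targets and up to 2 members a list each way. The largest changes and smallest adjusted p were taken only from features whose genotypes did not overlap and whose higher group mean was at least 0.05. For the interaction, the differences by replicate number could not overlap. Lack of overlap in such genes is thus no result. Further members of each list were given as examples chosen after their values were seen. The lists and members were chosen with earlier results of these data known. Pairing by replicate number was checked, and correlations were -0.087 to 0.0825. Alternatives changed pseudocount, filter, scaling, libraries, block, trend and fold minimum.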

Additional observations from a re-analysis of the deposited data

Results flagged for a closer look

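The change made by the deletion differed between starvation and glucose (limma interaction, log2, starved minus glucose) for 558 features in the negative and 11 in the positive direction, and the named ones are given here. Among sugar genes the difference was -2.97 for MAL11, -2.85 for MAL31, -0.995 for MAL33, -0.956 for the isomaltase gene IMA1 and 0.619 for the hexose transporter gene HXT2. Among carbon and stress genes it was -1.43 for CYB2, -1.17 for PCK1, which starts gluconeogenesis, and -1.31 for the peroxidase gene GPX1. Nutrient and amino acid genes gave -1.04 for DAL5, -0.954 for FRE2, -0.665 for ARO9, -0.649 for CPA1 and -0.899 for URA10. Transport, autophagy and other genes gave -1.58 for ENA1, 0.89 for PHO84, -1.01 for ATG16, -1.26 for ATG39, -2.19 for YPS5, -0.687 for AAD4 and 0.887 for the splicing factor gene CWC2. Uncharacterised ORFs gave -2.36 for YGL258W-A, -2.19 for YOR376W-A, -2.18 for YCR101C and -0.907 for YEL073C. Noncoding RNAs gave -2.49 for XUT1664, -2.25 for SUT781, -2.12 for XUT0376, -2.08 for SUT421, -1.99 for XUT1168 and -0.909 for NUT0814.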

How the results depend on the processing

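With 2 libraries a group, counts moved with the processing more than directions did. Scaling to protein-coding genes gave 3502 risen features in starvation (1199 protein-coding), 2797 fallen in glucose and 296 with a positive difference between conditions. Scaling to snoRNAs gave 869 risen (132 protein-coding, 334 XUTs, 194 SUTs) and 3808 fallen (3404 protein-coding) in starvation, 115 fallen in glucose, and 17 positive and 1800 negative differences. It turned the direction of CTF13 (-0.0394), SPT10 (-0.0649), ALR1 (-0.0916), SAM1 (-0.191), IMP3 (-0.0428) and RPN13 (-0.00219). A 2-fold minimum left 1049 risen (164 protein-coding, 414 XUTs, 213 SUTs) and 40 fallen (24 protein-coding) in starvation, 2360 risen and 34 fallen in glucose and 347 negative differences. A 10 times larger pseudocount gave 440 risen XUTs and 3 positive and 338 negative differences. The compared groups alone gave 545 fallen in glucose and 1 positive and 123 negative differences. Replicate numbers did not pair the libraries, and with a replicate block 2369 features rose and 2464 fell in starvation, with 20 positive and 936 negative differences. Without 1 starved library 1484 to 1684 features rose, 697 to 1216 fell (633 to 1126 protein-coding), and 3 to 59 positive and 181 to 475 negative differences passed. The causes were not tested. Of 171 named features, 16 to 30 lost their call without 1 library, 94 under the 2-fold minimum, and 0 changed without a filter or with a 10 times smaller pseudocount. Scaling to ERCC spike-ins had the same factor in every library and so tests nothing. Depth limits low features, and 398 of 11997 were not tested.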
